A study of Homo sapiens with 3 samples.

Results

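Interferon-stimulated genes are the genes that cells switch on when interferons bind their receptors, and 42 of them were examined in LX-2 cells, an established, immortalized human hepatic stellate cell line, by their gene symbols. The symbols of 41 were found among the 26108 genes of the deposited table, and CMPK2 was not analysed here. Of the 41, 36 had a mean of at least 0.5 FPKM over the 3 libraries, as did 12447 of all genes, and fold changes were read for these 36 alone. FPKM divides the fragments of a gene by its transcript length and by the total mapped in the library, so levels can be compared between genes. A fold change is the difference of log2(FPKM + 0.1), and higher or lower by more than 2-fold means beyond 1 on that scale. There was 1 library of vehicle-treated cells, 1 of cells given 50 ng/mL rhFGF19 (recombinant human FGF19) and 1 given 100 ng/mL. Levels are given below in the order vehicle, 50 and 100 ng/mL, and pairs of fold changes in the order 50 and 100 ng/mL. No value has a replicate error, and every comparison was between single libraries with no replicate check. The series text gives 24 h of stimulation, whereas the sample descriptions give 72 h and 73 h and exchange the 50 and 100 ng/mL doses, so the doses used here are those of the sample titles.

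Type I interferons act through the receptor subunits IFNAR1 and IFNAR2, the kinases JAK1 and TYK2, and transcription factors including STAT2 and IRF9, which bind the interferon-stimulated response element (ISRE) in the promoters of their target genes. The products of these genes sense viral RNA, block viral entry, translation or replication, and raise or limit the response itself. Many of them are also expressed at a basal level in cells that have met no virus.

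The libraries differed in more than these genes. The table summed to between 276690 and 302243 FPKM per library, with depth unknown because no read counts come with FPKM. Over the 12447 genes tested, the log2 fold changes had medians of 0.62 and 0.61. Genes with GC-rich transcripts had lower fold changes (Spearman correlation across genes, -0.77 for either dose), whereas between the rhFGF19 libraries the correlation was 0.067. There is no second vehicle library, so the trend and the treatment cannot be told apart, and GC contents are therefore given beside the groups of genes below. Of 10 stellate cell markers, 9 were listed and 7 passed the filter, among them VIM, TAGLN and COL1A1, whereas LUM was listed at 0, 0 and 0.04 FPKM and COL1A2 at no more than 0.14. Of 3 markers of plasmacytoid dendritic cells, the main interferon-producing blood cells, IL3RA alone was listed, at no more than 0.14 FPKM, and endothelial markers summed to at most 0.50. Of the epithelial markers, KRT8 and KRT18 accounted for nearly all of the 302 to 503 FPKM listed, and CDH1 was at 0.01 FPKM or less. Blood cell markers summed to 52.6, 47.2 and 42.7 FPKM, mostly CD68, and hepatocyte markers to 11.3, 12.5 and 11.4. The part of other cell types in the values below was not tested.

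Promoter sequences show what the members have in common apart from their names. RefSeq promoters (GRCh38.p14, from 250 bases before to 50 after the transcription start) were found for 34 of the 42 genes and not for IFIT2, IFITM2, MX2, OAS2, OASL, IRF7, DHX58 and USP18. The ISRE was searched on both strands as TTTCNNTTTC, and 23 of the 34 genes had at least 1 match, 14 of them with more than 1 match in the same promoter. By promoter, 28 of 46 (60.9%) held a match, compared with 3.57% of all 35116 promoters. The GAS element, through which interferon-gamma acts, was searched as TTCNNNGAA and was present in 13 of the 46 promoters (28.3%), compared with 7.66% of all. Matches to the 2 motifs overlapped in 5 promoters. A match shows only that the letters are present.

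The 250 bases before the start are shown for ISG15, the most abundant member, and for IFIT1, whose protein binds foreign RNA, because their FPKM values differed from vehicle in opposite directions. Capitals mark the ISRE matches.

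ISG15, chr1:1013247-1013496 on the + strand: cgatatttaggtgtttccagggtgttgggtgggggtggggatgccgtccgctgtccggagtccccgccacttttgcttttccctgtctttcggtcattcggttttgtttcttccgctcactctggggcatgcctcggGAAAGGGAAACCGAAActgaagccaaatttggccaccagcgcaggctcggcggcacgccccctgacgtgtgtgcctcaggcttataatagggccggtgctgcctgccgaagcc
IFIT1, chr10:89392373-89392622 on the + strand: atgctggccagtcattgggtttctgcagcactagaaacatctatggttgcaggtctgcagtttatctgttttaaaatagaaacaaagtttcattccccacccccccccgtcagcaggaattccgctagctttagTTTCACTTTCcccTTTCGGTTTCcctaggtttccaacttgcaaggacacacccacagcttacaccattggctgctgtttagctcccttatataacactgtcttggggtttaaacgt

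The first bases of the matches were at -113 and -107 in ISG15 and at -116 and -103 in IFIT1, counted from the transcription start, and both sequences run in the direction of transcription. Shorter windows, with the matches that lie wholly inside them in capitals, are given for IFITM3 and BST2, which were lower than vehicle, and for OAS3, IFIT3, IFIT5 and GBP1, which were higher, to show the element on either side.

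IFITM3, chr11:320888-320927 on the - strand: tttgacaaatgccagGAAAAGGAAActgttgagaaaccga
BST2, chr19:17405730-17405775 on the - strand: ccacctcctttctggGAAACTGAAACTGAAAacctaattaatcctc
OAS3, chr12:112938316-112938355 on the + strand: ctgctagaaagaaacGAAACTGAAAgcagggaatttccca
IFIT3, chr10:89327826-89327865 on the + strand: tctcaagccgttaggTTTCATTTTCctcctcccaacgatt
IFIT5, chr10:89414508-89414547 on the + strand: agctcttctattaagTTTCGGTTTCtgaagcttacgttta
GBP1, chr1:89065311-89065350 on the - strand: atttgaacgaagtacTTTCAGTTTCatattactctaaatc

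**Figure D1:**
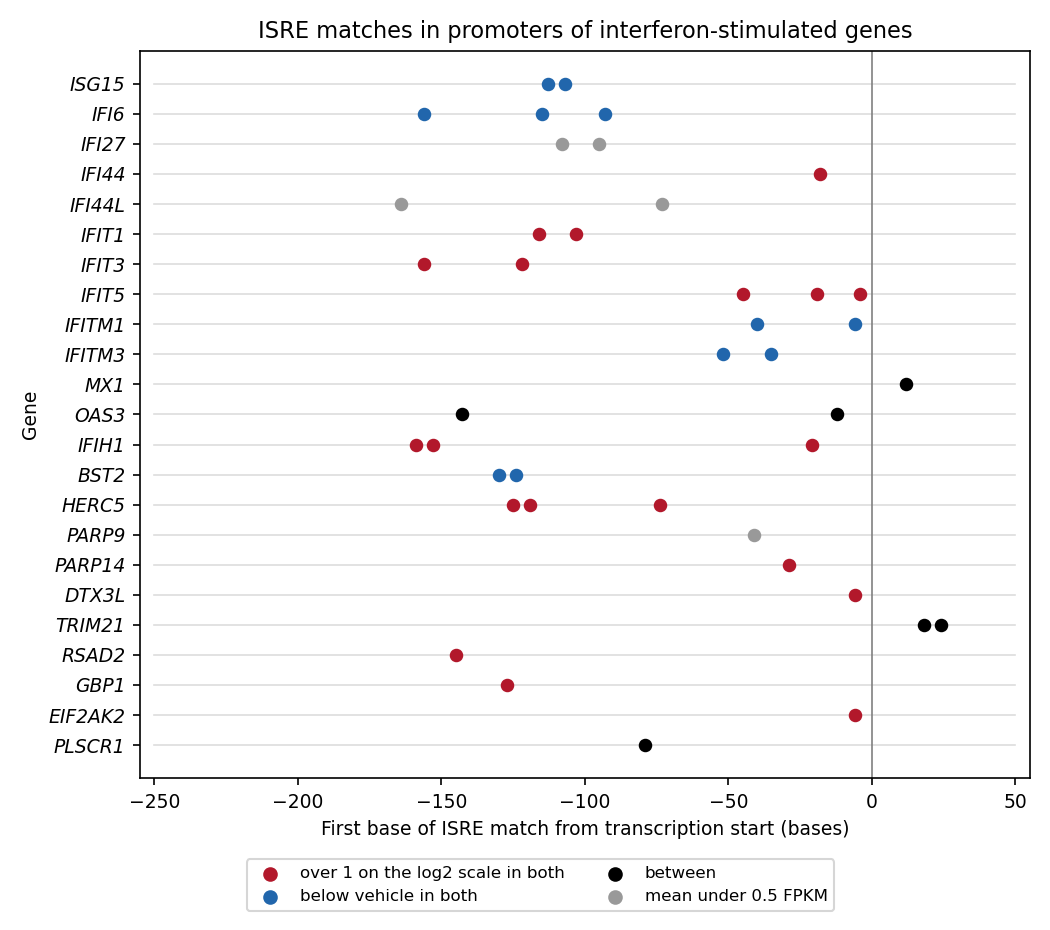
Position of each ISRE match (first base, in bases from the transcription start) in 1 RefSeq promoter, the first with a match, of each of the 23 genes that have one. Red points are genes above 1 on the log2 scale at both doses, blue points genes below vehicle at both, black points the others that passed the filter and grey points genes below it, and both red genes (IFIT3, from -156) and blue genes (IFI6, also from -156) carry matches far from the start as well as near it.

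Of the 36 genes with fold changes, 20 had a promoter match to the ISRE and 9 had a promoter without one. Among the 20, 11 were more than 2-fold higher than vehicle in both rhFGF19 libraries (36.2% of all genes tested) and 5 were below vehicle in both (31.9%), with median log2 fold changes of 1.32 and 1.29. Among the 9, 4 were higher and 2 below, with medians of 0.94 and 0.96. The sets were not matched for GC content, with which fold changes fell over all genes. The part of the ISRE in this difference was therefore not tested.

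The members covered a wide range of levels. ISG15 (ENSG00000187608, chromosome 1 from 1001138 to 1014540), a secreted ubiquitin-like protein, was at 618, 311 and 321 FPKM. It ranked 61st of all listed genes in the vehicle library and 106th and 104th in the rhFGF19 libraries, and it alone made up 46.8% of the summed FPKM of the members in vehicle and 34.9% and 35.0% with rhFGF19. That sum was 1319, 889 and 918 FPKM. Without ISG15 it was 701, 579 and 596. The number of members with at least 1 FPKM was 25, 35 and 34, as that of all genes was 8890, 10925 and 10894. In a bulk culture, a different number of cells that express a gene and a different amount of RNA per cell cannot be told apart.

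**Figure D2:**
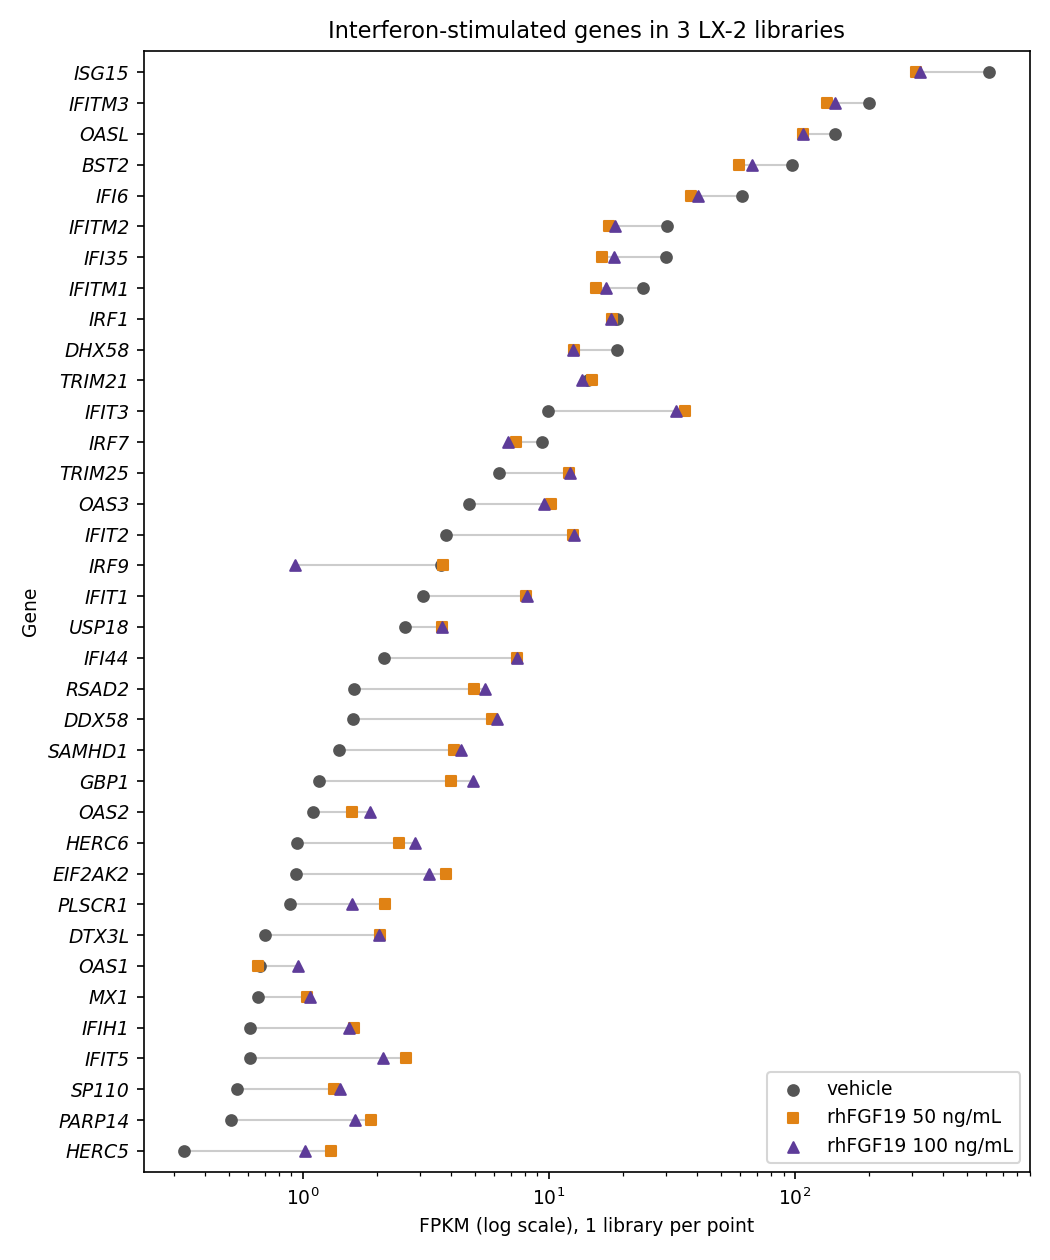
FPKM on a log scale of the 36 interferon-stimulated genes that passed the filter, ordered by their level in vehicle, with 1 point for each library and no error bar because each group had 1 library. The 10 most abundant genes in vehicle, from ISG15 to DHX58, lie to the left of their vehicle point in both rhFGF19 libraries, and most genes under 10 FPKM lie to the right.

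Relative to vehicle, 18 of the 36 members exceeded 2-fold at 50 ng/mL, beside 39.4% of all genes tested. The 100 ng/mL library had 16 of 36 (38.5% of all genes). None was more than 2-fold lower in the 50 ng/mL library (1.78% of all genes), and IRF9 alone was in the other (1.58%). The members had median log2 fold changes of 1.01 and 0.86, beside the 0.62 and 0.61 of all genes. The comparisons share the vehicle library. Past 2-fold at both doses were 16 of 36 members and 36.2% of all genes, namely IFI44, IFIT1, IFIT2, IFIT3, IFIT5, DDX58, IFIH1, HERC5, HERC6, PARP14, DTX3L, SAMHD1, RSAD2, GBP1, EIF2AK2 and SP110. Below vehicle at both doses were 11 of 36 members and 31.9% of all genes, namely ISG15, IFI6, IFI35, IFITM1, IFITM2, IFITM3, OASL, IRF1, IRF7, DHX58 and BST2. The members divided by their level in vehicle. All 16 of the higher genes were under 10 FPKM in vehicle, and 10 of the 11 members with at least 10 FPKM in vehicle were below vehicle at both doses, as were 70.3% of all genes of that level. In the whole table, 5.9% of the 3473 genes of that level were past 2-fold higher at both doses. Under 10 FPKM in vehicle, 16 of 25 members were, beside 47.9% of the 8974 such genes, and 1, IRF7, was below vehicle at both doses (17.1%). The vehicle value enters both the level and the fold change.

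The counts depended on how the libraries were scaled. With quantile normalization, which gives every library the same distribution, 6 and 5 members were more than 2-fold higher at 50 and 100 ng/mL (9.49% and 8.68% of all genes) and 0 and 1 lower (9.95% and 9.22%). IFI44, IFIT2, IFIT3 and DDX58 were past 2-fold at both doses on that scale, IFIT5 and EIF2AK2 at 50 ng/mL and GBP1 at 100 ng/mL. With the median ratio of genes of at least 1 FPKM set to 0, 15 members were higher in each library (29.9% and 29.3%) and 3 and 2 lower (6.5% and 5.09%), namely ISG15 at both doses, IFI35 and IFITM2 at 50 ng/mL and IRF9 at 100 ng/mL. With a pseudocount of 1 in place of 0.1, 10 and 9 were higher (17.6% and 16.7%). With the trend of fold change on transcript length removed, 7 and 6 were higher (14% and 13.6%) and 5 and 4 lower (16.4% and 15.3%), among them ISG15, IFI35 and IFITM2 at both doses.

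The IFIT proteins are involved in the defence against foreign RNA and its translation, and their genes lie side by side on chromosome 10. All 4 were more than 2-fold higher in both rhFGF19 libraries, beside 36.2% of all genes tested and 47.9% of those under 10 FPKM in vehicle. IFIT3 was the most abundant, at 9.90, 35.7 and 32.9 FPKM (log2 fold changes of 1.84 and 1.72). IFIT2 was at 3.81, 12.5 and 12.7 FPKM, and IFIT1 at 3.09, 8.06 and 8.15. IFIT5, the lowest, was at 0.61, 2.62 and 2.13 FPKM, so that the order of the 4 genes was the same in every library. Their transcripts had GC contents of 37.4% to 44.2%, where the loess trend of the log2 fold change on GC content over all genes was at 1.31 to 1.51 at 50 ng/mL. Less this trend, IFIT3 was at 0.53 and 0.43 on the log2 scale, IFIT2 at 0.26 and 0.30, IFIT5 at 0.43 and 0.15, and IFIT1 at -0.079 and -0.045. IFIT1, IFIT2 and IFIT3 overlap LIPA on the opposite strand, which was at 3.78, 9.97 and 10.2 FPKM, and whether strand was used in the counting is not given in the sources used here.

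Of 5 membrane proteins that restrict viruses, 4 were below vehicle at both doses (31.9% of all genes tested), none by more than 2-fold. Those 4 had at least 10 FPKM in vehicle, a level at which 70.3% of all genes were below vehicle at both doses. IFITM1, IFITM2 and IFITM3 hinder the fusion of viral envelopes and lie together on chromosome 11. IFITM3 was at 201, 135 and 145 FPKM. IFITM2 was at 30.2, 17.5 and 18.5 FPKM, and IFITM1 at 24.1, 15.6 and 17.1. All 3 were highest in vehicle, with log2 fold changes of -0.47 to -0.78, and stayed lower under both other scalings and after the GC trend was removed. The 3 genes are close copies, and the listed span of IFITM2 (307631 to 315272) contains that of IFITM1 (313506 to 315272) on the same strand, so the division of reads between them is uncertain. BST2 (tetherin), which holds budding virions on the cell surface, was at 97.4, 59.4 and 66.8 FPKM, with log2 fold changes of -0.71 and -0.54. PLSCR1, a phospholipid scramblase, was the exception at 0.89, 2.16 and 1.58 FPKM. It was more than 2-fold higher at 50 ng/mL and not at 100 ng/mL, and under quantile normalization it was below vehicle at 100 ng/mL (-0.10). The transcripts of the IFITM genes and BST2 had 55.7% to 58.5% GC, and that of PLSCR1 42.4%. Less the GC trend, all 5 were below 0 at both doses, from -0.22 to -0.69 at 50 ng/mL.

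Sensors of viral RNA fell on both sides. DDX58 (RIG-I), which detects short double-stranded RNA, was at 1.60, 5.89 and 6.15 FPKM. IFIH1 (MDA5), the sensor of long double-stranded RNA, was at 0.61, 1.62 and 1.55 FPKM. EIF2AK2 (PKR), a kinase that shuts down translation on binding such RNA, was at 0.94, 3.84 and 3.25 FPKM. These 3 were more than 2-fold higher at both doses (36.2% of all genes tested, 47.9% of those under 10 FPKM in vehicle), with log2 fold changes of 1.22 to 1.92. DHX58 (LGP2) is a relative of DDX58 and IFIH1 without their signaling domains. It was the most abundant of the 4 in vehicle and the only one below it with rhFGF19, at 19.0, 12.7 and 12.6 FPKM. DHX58 had 58.5% GC and the others 38.7% to 43.3%. Less the GC trend, DDX58 was at 0.35 and 0.42 and EIF2AK2 at 0.43 and 0.21, while IFIH1 was at -0.091 and -0.13 and DHX58 at -0.35 and -0.37.

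The oligoadenylate synthetases make the second messenger that activates RNase L. OAS3 was at 4.75, 10.2 and 9.56 FPKM, with log2 fold changes of 1.09 and 0.99. At its GC content of 55.7% the trend was near 0 (0.019 at 50 ng/mL), and OAS3 kept log2 values of 1.07 and 0.97 once the GC trend was taken away, the former the only member value past 2-fold higher on that scale. OAS1 was at 0.67, 0.66 and 0.96 FPKM and OAS2 at 1.10, 1.58 and 1.88, both within 2-fold of vehicle and, under quantile normalization, both below it. OASL, which lacks the synthetase activity and enhances RIG-I signaling, was the third most abundant member at 145, 108 and 107 FPKM, and its log2 fold change was -0.43 at both doses. The 4 genes of this family thus spanned -0.43 to 1.09 at 50 ng/mL.

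ISG15 is attached to other proteins, and genes for attaching (HERC5) and removing it (USP18) were among the members. HERC5, the main ligase for ISG15, was at 0.33, 1.31 and 1.02 FPKM, and its neighbour HERC6 at 0.95, 2.47 and 2.86. Both were more than 2-fold higher at both doses (36.2% of all genes tested, 47.9% of those under 10 FPKM in vehicle). ISG15 itself had log2 fold changes of -0.99 and -0.94. USP18, which removes ISG15 and dampens receptor signaling, was at 2.61, 3.68 and 3.69 FPKM, within 2-fold of vehicle, and was below it under quantile normalization. ISG15 had the second highest GC content of the members, 63.8%, and its log2 fold changes less the GC trend were -0.51 and -0.48. HERC5 and HERC6 had 41.5% and 47.4% GC. Less the GC trend, HERC5 was at 0.28 and -0.038 and HERC6 at 0.24 and 0.46. TRIM25, a ubiquitin ligase for RIG-I, was at 6.26, 12.1 and 12.2 FPKM, just under 2-fold higher (0.94 and 0.96). TRIM21, an intracellular antibody receptor, was at 14.4, 14.9 and 13.6 FPKM. Its log2 fold changes of 0.052 and -0.079 contrasted with a trend value of 0.92 at 50 ng/mL for its GC content of 48.7%, which left it lower than any other member at that dose, at -0.87, and at -0.98 at 100 ng/mL.

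In the 50 ng/mL library the interferon regulatory factors among the members were all within 2-fold of vehicle. On the log2 scale they lay between -0.35 (IRF7) and 0.023 (IRF9). Quantile normalization put IRF7 at -0.71, IRF9 at -0.66 and IRF1 at -0.11 in that library. IRF1, a transcription factor induced early by interferon-gamma, was at 19.0, 18.0 and 17.9 FPKM. IRF7, which drives interferon-alpha genes, was at 9.42, 7.36 and 6.81 FPKM, within 2-fold of vehicle like IRF1. IRF9, a DNA-binding partner of STAT2, was at 3.66, 3.72 and 0.93 FPKM, lowest by far in the 100 ng/mL library. The log2 fold change of IRF9 at 100 ng/mL was -1.87, and -1.82 less the GC trend, so it was the only member more than 2-fold lower than vehicle by either measure. Another listed gene, AL136295 (ENSG00000259529), overlaps IRF9 (ENSG00000213928, chromosome 14 from 24161265 to 24166565) on the same strand and was at 19.7, 13.2 and 17.1 FPKM, and how shared reads were divided was not tested.

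Among the remaining effectors, RSAD2 (viperin), which makes a chain-terminating nucleotide, was at 1.61, 4.98 and 5.49 FPKM. SAMHD1, which depletes deoxynucleotides, was at 1.41, 4.14 and 4.42. GBP1, a GTPase that attacks vacuoles of pathogens, was at 1.17, 4.01 and 4.90, and its log2 fold change of 1.98 at 100 ng/mL was the largest of the members in that library. All of these were more than 2-fold higher at both doses, beside 36.2% of all genes tested. The same was true of PARP14 and DTX3L, neighbours on chromosome 3 that act in ADP-ribosylation and ubiquitylation (log2 fold changes of 1.42 to 1.71), of SP110, a nuclear body protein (1.17 and 1.25), and of IFI44 (1.74 and 1.75). Their transcripts had 39.4% to 46.3% GC, and less the GC trend they lay between 0.015 and 0.62. MX1, the dynamin-like GTPase often used as a marker of interferon action, was near the filter at 0.66, 1.04 and 1.07 FPKM, and its direction turned under quantile normalization (-0.28 and -0.23). IFI6, a mitochondrial protein, and IFI35 were lower than vehicle at both doses, at 60.8, 37.7 and 40.6 FPKM and at 29.9, 16.5 and 18.4 FPKM.

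Several genes that typically stand out in an interferon response were close to the limit of the table. IFI27 was at 0.40, 0.45 and 0.32 FPKM and IFI44L at 0, 0.01 and 0.01. MX2 was at 0.07, 0.15 and 0.13 FPKM, XAF1, a proapoptotic protein, at 0.08, 0.39 and 0.38, and PARP9, the partner of DTX3L, at 0.17, 0.59 and 0.46. None of these 5 exceeded 0.59 FPKM in any library, and no fold change is given for them. PARP9 and DTX3L overlap head to head on opposite strands.

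The fold changes of the members followed the composition of their transcripts, as those of all genes did. The 16 genes that were more than 2-fold higher at both doses had GC contents of 37.4% to 47.4%. The 11 that were below vehicle at both had 55.1% to 67.0%. Both groups were chosen by fold change, and the median GC content of all genes tested was 51.2%. Across the 36 genes the Spearman correlation of the log2 fold change with GC content was -0.91 and -0.86, and between the rhFGF19 libraries it was 0.25. Over all genes tested it was -0.77 at either dose, and 0.067 between the rhFGF19 libraries. These are descriptions over genes that share the same libraries. The higher genes also had longer transcripts, with a median length of 2046 bases compared with 828 for those below vehicle. The median over all genes tested was 1155.5 bases. The trend was the loess curve of the fold change on GC content over all genes tested, and its part in the difference from vehicle cannot be told apart from that of rhFGF19.

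**Figure D3:**
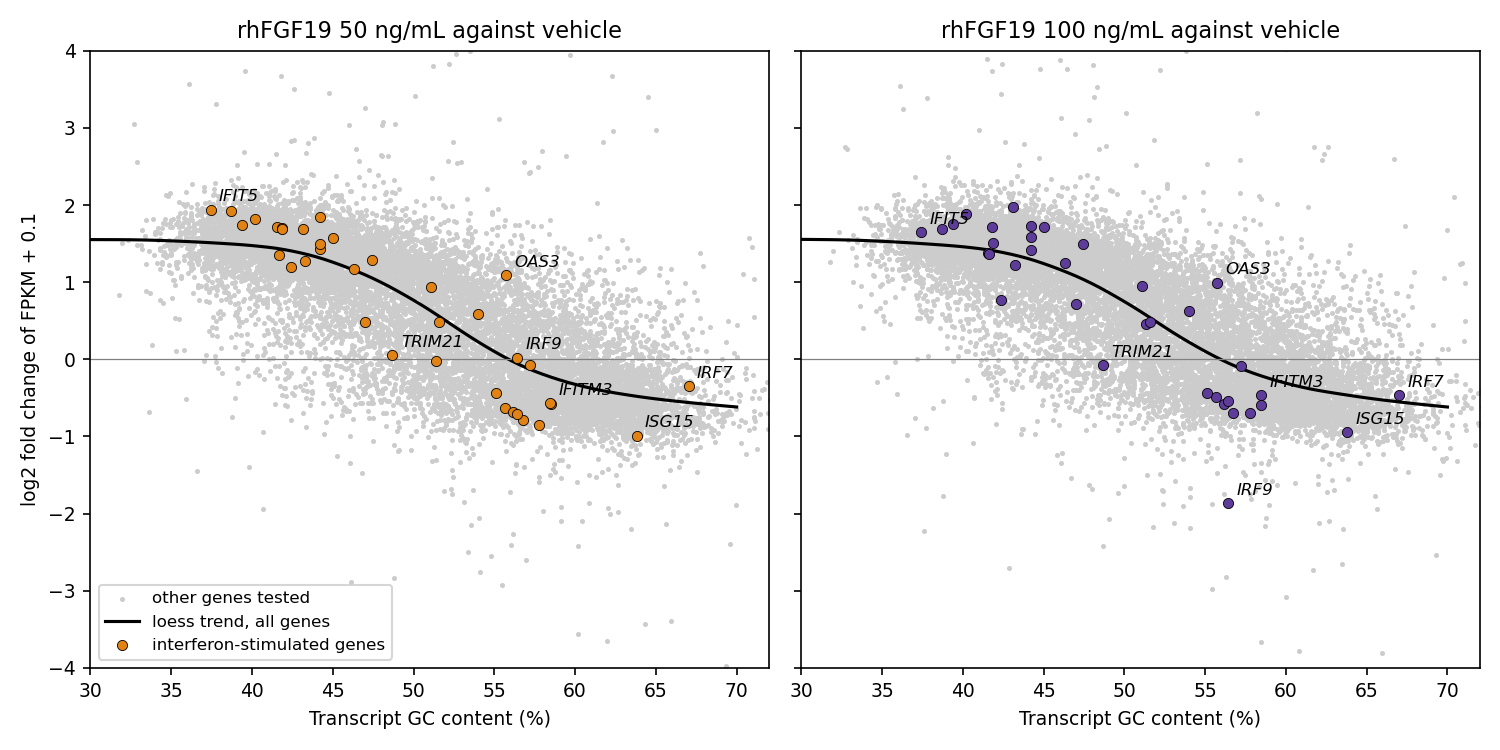
Log2 fold change of FPKM + 0.1 against vehicle (vertical axis) by transcript GC content in percent (horizontal axis) at 50 and 100 ng/mL, with the 36 interferon-stimulated genes as coloured points, all other genes tested as grey points and the loess trend over all genes as a line. The members descend along the trend from IFIT5 to ISG15, with OAS3 above it, TRIM21 below it and IRF9 far below it at 100 ng/mL, and 31 genes at 50 ng/mL and 25 at 100 ng/mL lie beyond 4 on the log2 scale and are not drawn, nor are 31 genes outside the range of GC content shown.

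With the GC trend subtracted, OAS3 was the 1 member of 36 past 2-fold higher in the 50 ng/mL library (3.85% of all genes), and there was none in the 100 ng/mL library (3.39%). Past 2-fold lower there was none and then 1, IRF9 (5.07% and 4.52% of all genes). Within 0.5 of the trend on the log2 scale lay 24 and 26 members, compared with 68.1% and 70.1% of all genes. The medians of the members were 0.067 and -0.0014. With the length trend subtracted as well, 1 member was past 2-fold higher in each library (4.03% and 3.53%), OAS3 both times. Of the 16 higher genes, 14 and 13 were above the trend, as were 76.2% and 76.6% of all genes chosen by the same limit. Of the 11 below vehicle, 9 were below the trend at either dose (80.2% and 81.1% of all genes so chosen), the exceptions being IRF1 and IRF7. The same fold changes chose these genes, so their side of the trend is a description only. The sizes were under 0.70 on the log2 scale for all 27 of these genes.

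**Figure D4:**
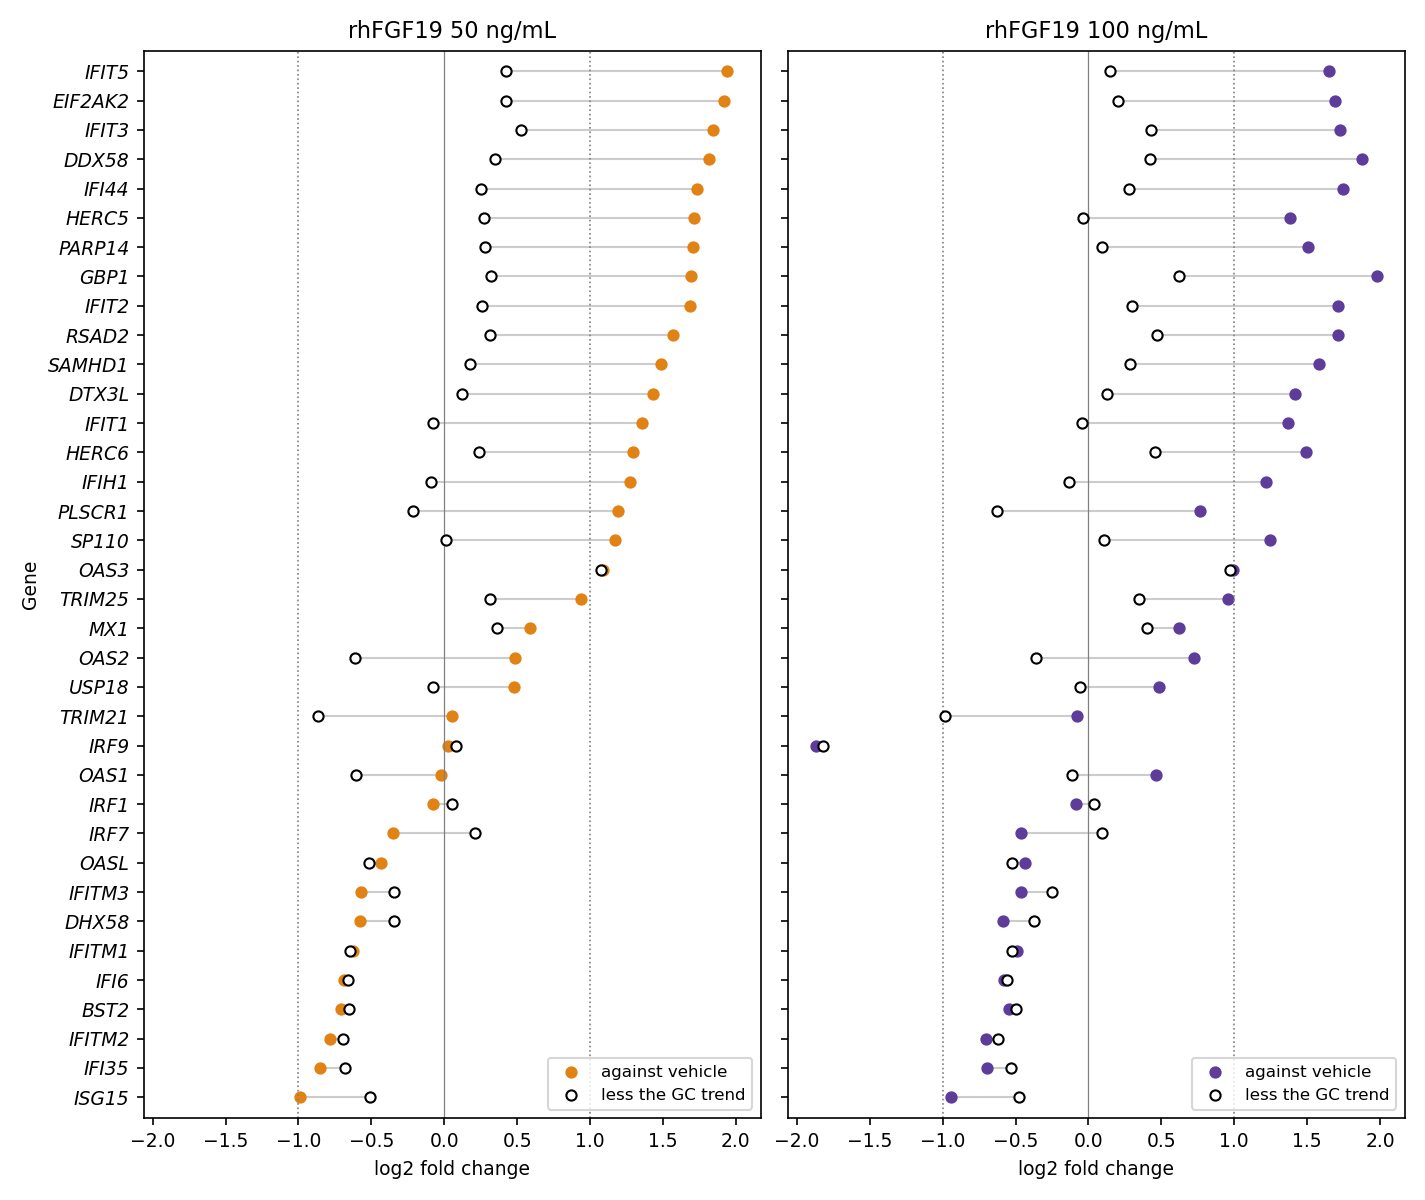
Log2 fold change against vehicle (filled points) and the same less the GC trend (open points) for the 36 interferon-stimulated genes, ordered by the value at 50 ng/mL, with dotted lines at 2-fold. The open points draw in towards 0 for the higher genes, while OAS3, IRF9, IFI6, IFITM1 and IFITM2 stay near their filled points.

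The rhFGF19 libraries resembled each other closely in these genes, as they did over all genes tested. Between 100 and 50 ng/mL the log2 fold change was within 0.5 for 35 of the 36 members, compared with 94.2% of all genes. Past 2-fold, none was higher at 100 ng/mL (0.852% of all genes) and 1, IRF9, was lower (0.884%), with a log2 fold change of -1.89. Without IRF9 the values ran from -0.43 for PLSCR1 to 0.48 for OAS1. The median absolute difference was 0.11 for the members and 0.089 for all genes.

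Other parts of the interferon pathway were read from a list of 59 genes, of which 44 were listed and 33 passed the filter. More than 2-fold higher were 16 and 15 of the 33, beside the 39.4% and 38.5% of all genes, and none was more than 2-fold lower at either dose (1.78% and 1.58%). Of 21 interferon genes, 7 were listed and 2 passed the filter. IFNB1 was at 0.69, 1.53 and 1.0 FPKM and IFNL1 at 1.74, 1.41 and 1.93 FPKM. Receptor subunits for type I interferon were more than 2-fold higher at both doses, beside 36.2% of all genes tested. Among all genes under 10 FPKM in vehicle the share was 47.9%. IFNAR1 was at 1.82, 5.44 and 5.18 FPKM and IFNAR2 at 0.83, 2.75 and 3.36. STAT2, the partner of IRF9, was at 11.6, 15.2 and 15.1 FPKM, within 2-fold of vehicle. The kinase TYK2 and the transcription factor IRF3 were lower than vehicle, with log2 fold changes of -0.64 to -0.77, and had 60.9% and 60.8% GC. JAK1, at 3.20, 8.56 and 8.85 FPKM, was more than 2-fold higher, with 49.1% GC and log2 values of 0.52 and 0.59 less the GC trend. IFNAR1 and IFNAR2 had 42.3% and 47.0% GC, and less the trend IFNAR1 was at 0.12 and 0.068 and IFNAR2 at 0.52 and 0.82. Among interferon-gamma targets, GBP2, GBP3 and GBP4 (40.3% to 45.7% GC) were more than 2-fold higher at both doses. Less the GC trend, GBP3 was at 0.72 and 0.51, GBP2 at 0.16 and 0.14, and GBP4 at -0.014 and 0.22. The immunoproteasome subunit PSMB9, which overlaps PSMB8 and TAP1 on the opposite strand, was at 37.8, 21.0 and 20.8 FPKM, and less the GC trend it was more than 2-fold lower, at -1.18 in both libraries.

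**Figure D5:**
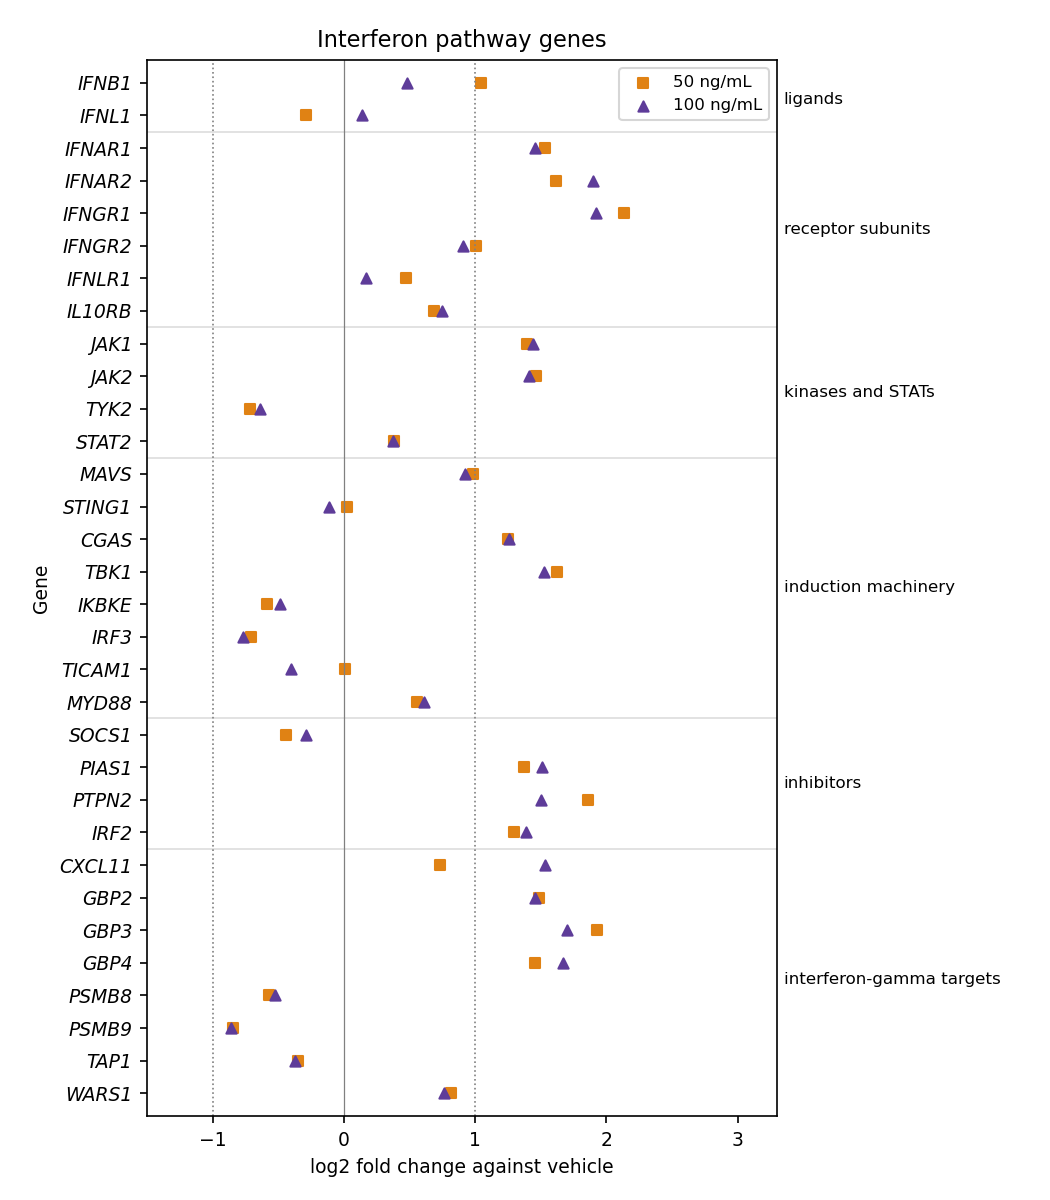
Log2 fold change against vehicle at 50 ng/mL (squares) and 100 ng/mL (triangles) of 32 of the 33 other interferon pathway genes that passed the filter, grouped by role, with dotted lines at 2-fold. Receptor subunits lie to the right of 0, and TYK2, IKBKE, IRF3, SOCS1, PSMB8, PSMB9 and TAP1 lie to the left at both doses.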

How the data were processed

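Poly(A) RNA of 3 LX-2 cultures was sequenced in paired ends. Reads were mapped by the authors with HISAT2, and the submitters' processing notes name HISAT2 2.0, StringTie 1.3.0 and Bowtie 0.12.2, with no roles. The deposited values are FPKM per gene, written to 2 decimals, and which program made them is not given in the sources used here. The notes name hg19 and mm8, but coordinates overlapped GRCh38 for 99.9% of the 25531 identifiers found in GENCODE v29.

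Fold changes were differences of log2(FPKM + 0.1) between single libraries, read for genes whose 3 values averaged 0.5 FPKM or more, a scale that understates the change of low genes, and 2-fold was the limit, after the study's methods. No test was made with 1 library per group. GC content and length were medians over each gene's listed transcripts in GENCODE v29 (99.6% of genes tested), and trends were loess curves with a span of 0.3. The fold changes and the removal of a GC trend were tested on simulated data with a linear trend, and the other steps were not. All members, and pathway genes from fixed lists, could be named. Members and lists were chosen with earlier results of these data known. The 8 other settings were 2 pseudocounts, 2 filters, 2 scalings and removal of 2 trends, and removing both trends was added after seeing the data. Python 3.11.15, pandas 2.3.3, NumPy 2.4.6, SciPy 1.17.1, statsmodels 0.14.6 and matplotlib 3.10.9 were used. Some genes of the lists are counted but not reported here.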

Additional observations from a re-analysis of the deposited data

How the results depend on the processing

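With 1 library per group, the size that counts as a move of a fold change or median is the SD of the log2 difference between the rhFGF19 libraries over all genes, 0.34, and the counts of members more than 2-fold higher moved most. With a pseudocount of 1 they were 10 and 9, in the order 50 and 100 ng/mL, and the median at the lower dose was 0.65. With quantile normalization they were 6 and 5, with medians of 0.32 and 0.13. With the length trend removed, 7 and 6 members were higher and 5 and 4 lower, with medians of 0.45 and 0.41. With the GC trend removed, 1 and 0 were higher, with medians of 0.067 and -0.0014. With both trends removed, 1 was higher at each dose, with medians of 0.093 and -0.057. Setting the median ratio of genes of at least 1 FPKM to 0 subtracts the same value from every fold change in a comparison. With it, 3 and 2 members were lower. The cause of the moves under the settings before it was not tested. With a pseudocount of 0.01 the counts higher were 18 and 17 (41.4% and 40.4% of all genes). With no filter they were 20 and 18 of 41 (26.6% and 26.3%). With a mean of at least 1 FPKM they were 17 and 15 of 33 (37.9% and 37.0%). The member counts under these settings were all within 1.5 times those reported, while the shares of all genes differed between settings. Members past 2-fold that turned below 0 with the GC trend removed were IFIT1 (-0.079 and -0.045), IFIH1 (-0.091 and -0.13), HERC5 at 100 ng/mL (-0.038) and PLSCR1 at 50 ng/mL (-0.22). With both trends removed they were IFIT1 (-0.22 and -0.19), IFIH1 (-0.10 and -0.14), DTX3L (-0.037 and -0.024), IFIT5 (-0.0044), HERC5 (-0.18) and PARP14 (-0.059) at 100 ng/mL, and PLSCR1 at 50 ng/mL (-0.13). FPKM values keep no counts, so what depth limits could not be measured. No library could be left out, and no paired analysis was possible because each group had 1 library.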

Other observations

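The deposited annotation lists 53 genes directly under the type I interferon signaling pathway, 23 of them among the members above. Of the other 30, 25 passed the filter, and 10 and 8 were more than 2-fold higher at 50 and 100 ng/mL (39.4% and 38.5% of all genes tested), with medians of 0.36 and 0.38 on the log2 scale beside 0.62 and 0.61 for all genes. After the GC trend was removed the medians were -0.065 and -0.20. The genes named next were chosen after their values were seen. TREX1, a DNA exonuclease that keeps DNA sensing in check, was the only gene of the 25 more than 2-fold lower (1.78% and 1.58% of all genes). Its levels were 14.5, 3.71 and 4.64 FPKM (vehicle, 50 and 100 ng/mL). On the log2 scale these were fold changes of -1.93 and -1.62 and, less the GC trend, of -1.51 and -1.22. ISG20, an exonuclease of RNA, was at 12.4, 6.79 and 6.63 FPKM, and less the GC trend it was at -1.04 and -1.08. ADAR, which edits double-stranded RNA, was at 6.21, 15.1 and 15.2 FPKM, with log2 fold changes of 1.27 at both doses and 0.53 and 0.56 less the GC trend. These are single libraries, and no cause was tested.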
